A study of Mus musculus with 70 samples.

Results

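RENCA cells carried through the tail vein and lung were compared at the first passage in mice (P1) and at the sixth (P6). RENCA is a mouse renal adenocarcinoma line of BALB/c origin, which expressed GFP from a lentiviral vector throughout the series. In this route, abbreviated T-LM, cells injected into the caudal vein of 6-week-old female wild type BALB/c mice seeded the lung, and the cells recovered from the lung metastases were injected into new mice for the next passage. The T-LM P1 group held 5 samples, namely the tail-vein samples numbered 2 to 5 and a sample labelled LOT1 whose experiment label was also tail, and the T-LM P6 group held 4 samples. These 9 samples were chosen by their labels alone out of 65 RNA samples in the series. All groups shared the same GFP-expressing line, mouse strain and sex, and P1 and P6 differed in the number of rounds in mice. The parental cells before injection (P0, 2 samples), T-LM passages P2 to P5 and cells passaged under the kidney capsule and recovered from primary kidney tumours (KPT, 5 samples at P1 and 5 at P6) served as reference. According to the study's methods the digested lung tissue was kept in culture until GFP-negative cells were no longer seen, whereas the labels speak of homogenised samples. The sources used here do not state that each sample came from a different mouse, so p-values measure the spread between samples, which may in part be technical.

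Cells that arrive in the lung by the bloodstream have to lodge in capillaries, survive and grow among alveolar epithelium, endothelium and resident macrophages, without having left a primary tumour first. The alveolar type II cell, which secretes surfactant, and the alveolar macrophage, which clears it, are the cell types that most distinguish lung from other organs. Chemokines, complement components and serum amyloid proteins are secreted, and many of their genes respond to interleukins or to interferons.

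Each level below is the log2 signal of an array probe minus the 75th percentile of the same array, taken over the probes that were detected on every array, so that a level of 0 equals that percentile and each unit is a doubling. A probe counted as detected where the scanner software marked it well above background. A gene was represented by its brightest probe, and rose or fell where the limma test across all probes gave an adjusted p of at most 0.01. Where a gene was detected in no sample of a group only a bound on its fold is given, as the mean of the group with signal over the lowest signal that counted as detected. Some genes have close copies that probes may not tell apart, among them the Serpina3, Ifit3, C1s, Ctag2l, Bex and Bcl2a1 families.

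A pair of P1 samples stood apart from the rest of their group. Over all tested probes LOT1 correlated with P1 replicates 3 to 5 at r = 0.930 to 0.935 and with the parental P0 samples at r = 0.967 to 0.973, while P1 replicates 3 to 5 correlated among themselves at 0.987 to 0.991. P1 replicate 2 correlated with replicates 3 to 5 at 0.953 to 0.956, and 55.1% of its probes were detected, against 31.6% to 37.2% in the P6 samples. The 4 P6 samples correlated among themselves at 0.977 to 0.992. LOT1 also had nearly none of the fibroblast marker signal of its group, with a summed linear level of 0.497 against up to 19.9, and the parental samples had 0.0747 and 0.0786. Named changes that lose their call with P1 replicates 3 to 5 alone, and list counts that move by more than 1.5 times, are therefore also given for those replicates. Another measure moved with the groups. The mean log2 level of 9 long mRNAs minus that of 59 ribosomal protein mRNAs, an index that can shift with RNA quality, was -5.07 to -3.51 at P1 and -5.78 to -5.14 at P6. With this long-mRNA index as a covariate 516 genes rose and 400 fell, and counts for several lists are given with it as well.

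From P1 to P6, 1284 of 12672 tested genes passed the threshold, which is 10.1% of them. Of these, 595 genes rose (4.70% of the tested genes) and 689 fell (5.44%). The rises were the larger, with a median change of 1.72 on the log2 scale against -1.18 for the falls, and 254 rises but 90 falls reached a change of 2 or more, that is at least 4-fold. The P1 and P6 samples did not overlap in 2884 tested genes (22.8%), among them 550 of the rises and 643 of the falls. The median change over all tested genes was -0.10. Counted over probes, 899 were higher and 1277 lower at P6 (41.3% higher), and this split depended on the scaling, since 64.2% of the called probes were higher with the percentile taken over all probes, 61.0% after quantile normalization and 60.2% in the deposited series values. The median probe moved from -0.13 to 0.06 between the first of these scalings and the 75th percentile over all probes. With P1 replicates 3 to 5 alone, 537 genes rose and 480 fell, and 809 genes were called in both versions. The directions of the genes named below as having risen or fallen held under each of these scalings.

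**Figure D1:**
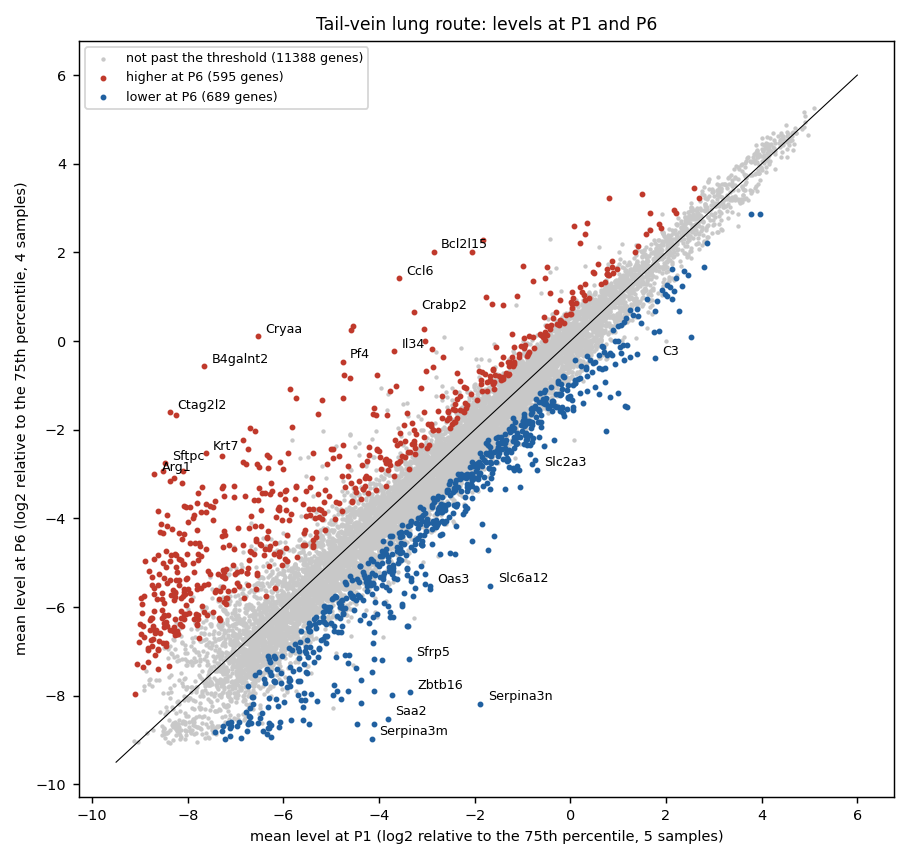
Mean level of each tested gene at P1 (x axis, 5 samples) and at P6 (y axis, 4 samples), both as log2 relative to the 75th percentile of the array. Each point is a gene, with the 595 rises in red, the 689 falls in blue and the line of equal levels in black. The genes farthest above the line, such as B4galnt2 and Cryaa, were near the dim end of the scale at P1, and Serpina3n lies farthest below it.

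Many of the genes with the largest rises were close to background at P1 and clearly detected in every P6 sample. B4galnt2, a glycosyltransferase that builds the Sda carbohydrate of glycoproteins, was at -7.31 in LOT1 and at -6.40, -8.15, -7.61 and -8.83 in P1 replicates 2 to 5, and at -0.75, -0.48, -0.34 and -0.69 in the 4 P6 samples. No P1 sample came near a P6 sample, and only 1 of the 5 P1 samples had a detected signal. The change was 7.09 ± 0.38 (SE) on the log2 scale (limma adjusted p = 9.2e-11), the largest of all tested genes whose groups did not overlap. Ctag2l2, a relative of the cancer-testis antigens that are otherwise expressed in germ cells, lay between -9.0 and -7.20 in the P1 samples, detected in none of them, and at -1.58, -1.75, -1.72 and -1.38 at P6. Its signal at P6 was at least 40.9-fold higher (adjusted p = 5.6e-10). Its close relative Ctag2l1 rose by 6.59 ± 0.47 (adjusted p = 2.9e-09). Pramel13, a member of the PRAME family that is likewise active in germ cells, was detected in no P1 sample and in all 4 P6 samples, at least 14.2-fold higher (adjusted p = 8.5e-10).

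Cryaa, the alpha A crystallin of the eye lens and a small heat-shock chaperone, was at -7.21, -4.19, -7.55, -6.88 and -6.81 at P1 and at 0.29, 0.03, 0.15 and -0.03 at P6. The P6 samples were all near the reference level, and the highest P1 value belonged to replicate 2. Cryaa rose by 6.64 ± 0.42 (adjusted p = 7.1e-10). The uncharacterised transcript 4930550L24Rik rose by 5.18 ± 0.47, with P6 samples between -3.06 and -2.83. Adgrf5, an adhesion G protein-coupled receptor that controls surfactant amounts in the lung, rose by 5.21 ± 0.47 (adjusted p = 7.0e-08), and the parental cells had a mean of -8.16.

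**Figure D2:**
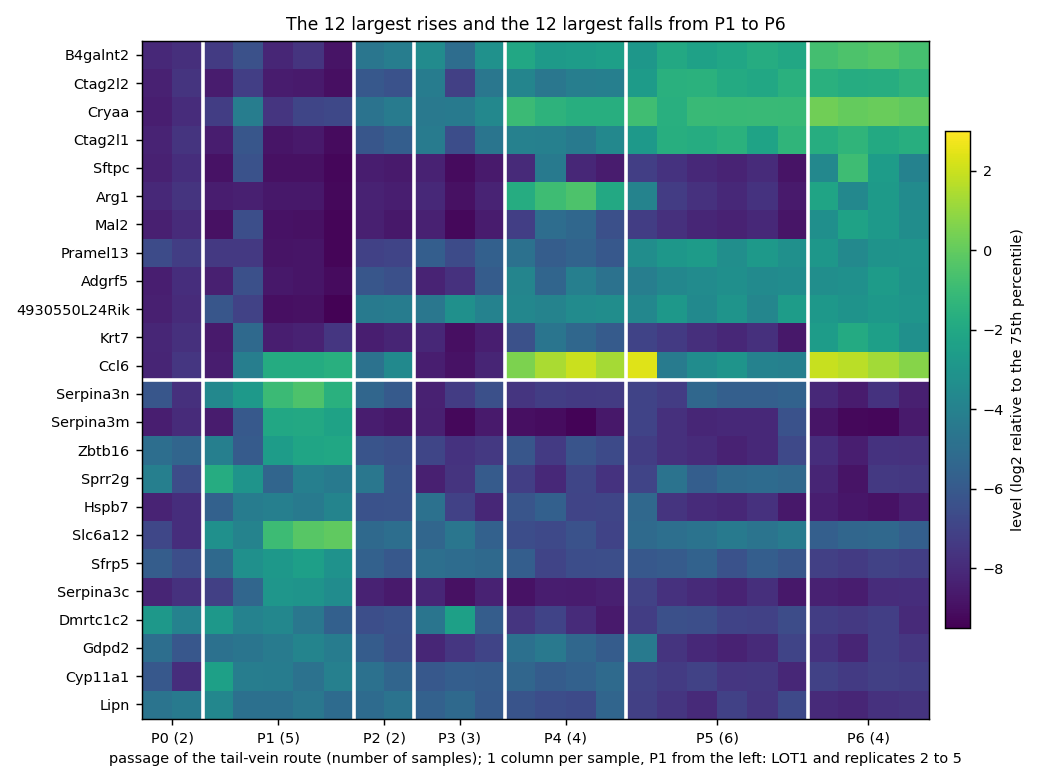
Level (colour, log2 relative to the 75th percentile) of the 12 largest rises and the 12 largest falls whose P1 and P6 samples did not overlap, in rows, across all parental and T-LM samples, in columns grouped by passage. B4galnt2, Ctag2l2 and Cryaa brightened from P2 onward, Sftpc, Mal2 and Krt7 were bright at P6, and Serpina3m and Serpina3c were bright in P1 replicates 3 to 5.

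Genes of the lung epithelium were the list with the highest share of rises. Of 10 tested markers 8 rose (80%, against 4.70% over all tested genes) and none fell, with a median change of 1.99. With P1 replicates 3 to 5 alone 8 of 10 rose. A marker was tested only if at least 2 arrays of the fit detected it. Sftpc, Sftpd and Sftpb were each detected in 1 P1 sample and Ager in none. Such markers could enter through P6 alone, so the share describes the list and is no test of it. Sftpc, the surfactant protein made by alveolar type II cells, was at -8.87 in LOT1, at -6.35, -8.94, -8.92 and -9.30 in P1 replicates 2 to 5, and at -3.64, -0.88, -2.57 and -3.95 at P6. All P6 samples were above all P1 samples, and P6 replicate 2 was the highest by far. The change was 5.72 ± 0.72 (adjusted p = 7.9e-06). Sftpd, a collectin of the airspace, rose by 3.31 ± 0.54 (adjusted p = 0.00017), although P1 replicate 2 at -5.11 lay just above the lowest P6 sample at -5.22. Sftpb, which spreads surfactant lipid, rose by 3.16 ± 0.63 (adjusted p = 0.0013) and reached -3.26 in P6 replicate 2 but -7.12 in P6 replicate 4. Ager, a receptor typical of alveolar type I cells, was detected in 3 of 4 P6 samples and no P1 sample, at least 2.82-fold higher (adjusted p = 0.00021).

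The summed linear level of the lung epithelial markers was 0.661 to 0.898 at P1 and 1.33 to 1.99 at P6, and between 3 and 9 of 14 markers were detected per P1 sample against 6 to 10 per P6 sample. Along the T-LM passages the sums did not climb steadily. They were 1.19 to 1.27 at P2, 0.967 to 1.14 at P3, 1.12 to 1.37 at P4 and 0.605 to 0.772 at P5. At P5 3 to 4 of 14 markers were detected per sample. The parental cells, whose samples never were in a lung, had sums of 0.860 and 1.79, with 3 of 14 markers detected in each. The mean log2 level of the list was -7.59 to -5.97 at P1 and -5.63 to -4.96 at P6. In the parental samples it was -6.84 and -6.36. Nkx2-1, the transcription factor that defines lung epithelium, was detected in no P1 or P6 sample, nor were Sftpa1 and Scgb3a2. Whether lung cells in the cultures took part in the rise of the surfactant genes was not tested. In RNA from a whole culture, more cells of a type and more RNA per cell cannot be told apart.

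Some other epithelial genes rose. Among 13 tested keratins, the intermediate filament proteins of epithelial cells, 5 rose (38.5%) and 1 fell (7.69%), and the median change was 0.69. Over all tested genes 4.70% rose and 5.44% fell. Krt7, a keratin of simple glandular epithelium, was at -8.61 in LOT1, at -5.25, -8.46, -8.30 and -7.53 in the other P1 samples, and at -2.60, -1.86, -2.46 and -3.22 at P6. Replicate 2 was the one P1 sample with a detected signal, and it too lay below every P6 sample. Krt7 rose by 5.09 ± 0.52 (adjusted p = 4.0e-07). Krt19, another keratin of simple epithelium and of mesothelium, rose by 3.47 ± 0.32 (adjusted p = 9.8e-08), Krt17 by 1.97 ± 0.35 (adjusted p = 0.00046) and Krt23 by 1.54 ± 0.37 (adjusted p = 0.0059, and 0.012 both with P1 replicates 3 to 5 alone and without LOT1). The keratin that fell, named here after its value was seen, was Krt16 with a change of -1.30. With P1 replicates 3 to 5 alone 4 keratins rose and 1 fell, and 3 rose and 1 fell both without LOT1 and with the long-mRNA index as a covariate.

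Of 20 tested genes of epithelial junctions and their regulation 4 rose and none fell, with a median change of 0.19. This share of 20% compares with 4.70% rises over all tested genes. With P1 replicates 3 to 5 alone 7 rose, as did 6 with the long-mRNA index. Cdh1, E-cadherin of the adherens junction, was at -8.69, -5.49, -8.79, -8.77 and -9.18 at P1 and at -5.31, -4.13, -4.52 and -5.70 at P6. The groups overlapped through P1 replicate 2. The change was 3.27 ± 0.56 (adjusted p = 0.00029). Esrp1, which directs epithelial splicing, rose by 3.07 ± 0.32 (adjusted p = 7.4e-07), the tight junction claudin Cldn7 by 3.04 ± 0.28 (adjusted p = 1.1e-07) and the membrane protease matriptase, St14, by 1.53 ± 0.23 (adjusted p = 8.0e-05). Mal2, which carries vesicles across polarised epithelial cells, rose by 5.60 ± 0.48 (adjusted p = 3.8e-08). The mesothelial antigen Msln, mesothelin, rose by 2.49 ± 0.22 (adjusted p = 7.0e-08) in a list in which 2 of 4 tested markers rose. Of 24 tested regulators and targets of the mesenchymal transition 1 rose (4.17%, near the 4.70% over all tested genes) and none fell, and the median was -0.40.

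**Figure D3:**
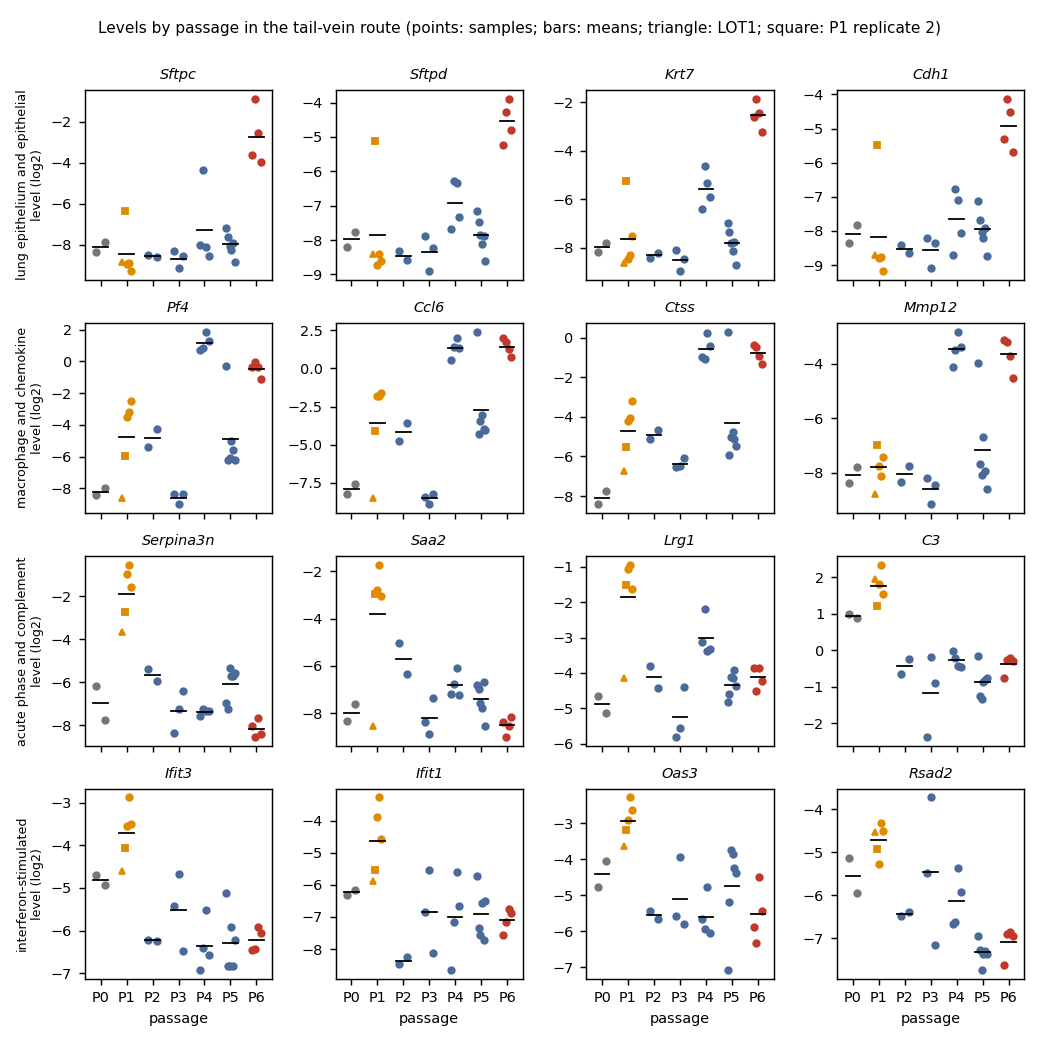
Levels (y axis, log2 relative to the 75th percentile) of 16 genes in the parental cells (P0) and along the T-LM passages P1 to P6 (x axis). Each point is a sample and each bar a group mean, with LOT1 drawn as a triangle and P1 replicate 2 as a square. The epithelial genes in the upper row were high at P6, the myeloid genes below them were high at P4 and P6 and low at P3, and the acute-phase and interferon-stimulated genes in the lower rows had their highest group mean at P1.

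Some chemokines rose, with marked differences between P1 samples. Among chemokines, secreted proteins that attract leukocytes, 3 of 11 tested CC members rose (27.3%) and none fell (median 0.59). Of 11 tested CXC and CX3C members 5 rose (45.5%) and none fell (median 1.11). Over all tested genes 4.70% rose. Both with P1 replicates 3 to 5 alone and with the long-mRNA index as a covariate, 1 CC member and 3 CXC and CX3C members rose. Pf4, a chemokine of platelets and of some macrophages, was at -8.62 in LOT1, at -5.97, -3.48, -3.19 and -2.53 in P1 replicates 2 to 5, and at -0.36, -0.05, -0.37 and -1.11 at P6. All P6 samples exceeded all P1 samples, and LOT1 was at background. The change was 4.28 ± 1.06 (adjusted p = 0.0066), and 2.59 (adjusted p = 0.069) with P1 replicates 3 to 5 alone. Ccl6, a chemokine of mouse macrophages, rose by 5.00 ± 1.20 (adjusted p = 0.0054), its relative Ccl9 by 3.87 ± 1.00 (adjusted p = 0.0091) and Cxcl14 by 4.88 ± 1.08 (adjusted p = 0.0031). Without LOT1 and P1 replicate 2 their adjusted p were 0.042, 0.072 and 0.030. Ppbp, a platelet chemokine precursor, was detected in no P1 sample and in all P6 samples, at least 4.16-fold higher (adjusted p = 7.0e-08), and the T-cell chemokine Ccl17 was at least 4.16-fold higher (adjusted p = 2.0e-05). The neutrophil attractant Cxcl3 rose by 1.40 ± 0.35 (adjusted p = 0.0080, and 0.017 without LOT1).

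Of 20 tested macrophage markers 5 rose (25%) and 2 fell (10%) with a median change of 1.32, against 4.70% and 5.44% over all tested genes. With P1 replicates 3 to 5 alone 2 rose and 1 fell. The count of rises depended on the processing. With the percentile over all probes and in the deposited series values 9 rose and 1 fell, after quantile normalization 8 rose and 1 fell, with slide as a block 2 rose and none fell, and with the long-mRNA index as a covariate none rose and 1 fell. The lysosomal protease Ctss rose by 3.97 ± 0.86 (adjusted p = 0.0026) and lysozyme, Lyz2, by 2.56 ± 0.64 (adjusted p = 0.0074), but their adjusted p were 0.030 and 0.049 with replicates 3 to 5 alone. The mannose receptor Mrc1 was detected in 1 P6 sample, at least 1.31-fold higher (adjusted p = 0.0013). Marco, the scavenger receptor of alveolar macrophages, went the other way. It was at -7.77 in LOT1 and between -5.43 and -4.59 in the other P1 samples, and was detected in none at P6, at least 2.26-fold lower (adjusted p = 0.0047, and 0.013 without P1 replicate 2), with LOT1 inside the P6 range. The whole marker list had a summed linear level of 4.79 to 7.01 at P1 and 4.57 to 5.75 at P6. Its brightest member, Cd68, weighs most in this sum and lay at 1.76 to 2.48 at P1 and 1.07 to 1.34 at P6. The mean log2 level of the markers was -6.18 to -5.26 at P1 and -5.09 to -4.37 at P6. The parental samples had sums of 3.59 and 2.74 and mean log2 levels of -6.40 and -6.18. Between 9 and 15 of 23 markers were detected per P1 sample and 11 to 17 per P6 sample. At the passages between, 9 to 10 were detected per sample at P2, 7 to 9 at P3, 18 to 19 at P4 and 6 to 13 at P5. Cd163, Cx3cr1 and C1qc were detected in no P1 or P6 sample. The part of macrophages in these differences was not tested.

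Several genes that macrophages express on activation were at background in every P1 sample. Arg1, the arginase that splits arginine into urea and ornithine, was at -8.49, -8.38, -8.70, -8.70 and -9.21 at P1 and at -2.22, -3.68, -2.69 and -3.45 at P6. It was detected in all P6 samples and no P1 sample, at least 15.6-fold higher (adjusted p = 9.0e-07). Il1b, the inflammatory cytokine interleukin 1 beta, was at least 7.95-fold higher (adjusted p = 0.00064). Mmp12, the elastase of macrophages, was at least 9.52-fold higher (adjusted p = 7.0e-05) and the gelatinase Mmp9 at least 4.96-fold (adjusted p = 0.00032). The other gelatinase, Mmp2, fell by 1.70 ± 0.31 (adjusted p = 0.00057). Of 15 tested metalloproteinases and inhibitors 2 rose (13.3%) and 3 fell (20%), with a median of 0.29, or 2 and 1 with the long-mRNA index. The shares over all tested genes were 4.70% and 5.44%. Mmp19 was among the falls, at least 1.05-fold lower (adjusted p = 0.0098, and 0.025 without P1 replicate 2), and LOT1 overlapped with the P6 samples. Of 6 tested genes of antigen presentation by MHC class II, the beta chain H2-Eb1 rose by 4.41 ± 0.54 (adjusted p = 6.0e-06) and H2-DMb1, which loads peptides, was at least 1.47-fold higher (adjusted p = 8.7e-06). Clec4n, the receptor dectin 2, rose by 4.78 ± 0.89 (adjusted p = 0.00065). Of 13 tested fibroblast markers none passed the threshold over all samples. Their median change was -0.21, and this median depended on which P1 samples were used. Their summed linear level was 0.497 in LOT1, 6.97 in P1 replicate 2 and 14.3, 19.9 and 16.7 in replicates 3 to 5, against 2.47 to 8.51 at P6. Replicates 3 to 5 thus lay above every P6 sample, and with them alone 1 marker fell and the median change was -1.56 (-0.99 without LOT1 only).

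A growth factor for macrophages rose in all samples alike. Il34, one of the ligands of the receptor Csf1r, was at -4.17, -3.19, -3.79, -3.60 and -3.67 at P1 and at -0.27, -0.17, -0.22 and -0.26 at P6. Neither group spread by more than 1 unit. The change was 3.45 ± 0.24 (adjusted p = 1.4e-09), and it was 3.45 with P1 replicates 3 to 5 alone. Among 12 tested myeloid growth factors 3 rose (25%) and 1 fell (8.33%), against 4.70% and 5.44% over all tested genes. The third rise besides Il34 and Il1b was Il7, a factor for lymphocytes, at least 2.06-fold higher (adjusted p = 0.00052), and the fall was the dendritic cell factor Flt3l at -0.76 ± 0.18 (adjusted p = 0.0059, and 0.016 without P1 replicate 2). Il11, a cytokine of the interleukin 6 family, rose by 4.45 ± 0.69 (adjusted p = 0.00010), from a mean of -5.74 to -1.29, while the receptor chain Il6ra fell by 1.63 ± 0.38 (adjusted p = 0.0043).

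Retinoic acid genes moved in both directions, with 3 of 19 tested members up and 3 down. Each share was 15.8%, against 4.70% up and 5.44% down over all tested genes. The median change of the list was 0.62 over all samples and -0.15 with P1 replicates 3 to 5 alone, which gave 3 up and 2 down. With the long-mRNA index 5 were up and 2 down. Crabp2, which carries retinoic acid within the cell, was at -2.87, -2.44, -3.56, -3.82 and -3.64 at P1 and at 0.76, 0.27, 0.79 and 0.77 at P6. The gap between the groups was wider than the spread of either. Crabp2 rose by 3.91 ± 0.33 (adjusted p = 3.8e-08). Dhrs3, which reduces retinal to retinol, rose by 4.05 ± 0.54 (adjusted p = 1.8e-05), and Cyp26a1, which degrades retinoic acid, was detected only in the P6 samples, at least 3.00-fold higher (adjusted p = 5.8e-05). Rarres1, named for its response to retinoids, was at least 1.56-fold lower (adjusted p = 0.0027), with LOT1 among the P6 values.

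Efflux pumps and some members of the Bcl2 family also rose. Abcb1b, which with Abcb1a encodes the multidrug transporter P-glycoprotein in mice, was at -8.53 in LOT1, at -5.80, -5.25, -5.21 and -5.25 in the other P1 samples, and at -3.08, -2.67, -2.88 and -2.87 at P6. It rose by 3.13 ± 0.48 (adjusted p = 8.0e-05), or by 2.36 (adjusted p = 7.4e-06) with P1 replicates 3 to 5 alone. Abcb1a rose by 2.31 ± 0.28 (adjusted p = 4.8e-06) and Abcb4, a phospholipid transporter of the same family, by 2.86 ± 0.45 (adjusted p = 0.00012). Of 17 tested Bcl2 family genes, which govern mitochondrial cell death, 3 rose (17.6%) and 1 fell (5.88%), against 4.70% and 5.44% over all tested genes. The counts were 2 and 2 with P1 replicates 3 to 5 alone and 1 and 1 with the long-mRNA index. Bcl2l15 rose by 4.87 ± 0.89 (adjusted p = 0.00059), the survival gene Bcl2a1d, typical of blood cells, by 4.63 ± 0.98 (adjusted p = 0.0022, and 0.030 with P1 replicates 3 to 5 alone) and the death-promoting Bmf by 2.94 ± 0.51 (adjusted p = 0.00035). The p53 target Bbc3, which encodes Puma, fell by 0.81 ± 0.15 (adjusted p = 0.00064). Cdkn1a, another p53 target that encodes the cell cycle inhibitor p21, fell by 1.53 ± 0.28 (adjusted p = 0.00055).

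Of 45 tested cell cycle genes 3 rose and 2 fell, with a median of 0.09, so that 11.1% passed the threshold, near the 10.1% of all tested genes, and 6 rose and 2 fell with the long-mRNA index. Cdc20, an activator of the anaphase-promoting complex, rose by 1.08 ± 0.22 (adjusted p = 0.0021) and cyclin B1, Ccnb1, by 0.99 ± 0.24 (adjusted p = 0.0064), whereas the transcription factor E2f2 fell by 1.16 ± 0.29 (adjusted p = 0.0064). The adjusted p of Ccnb1 and E2f2 were 0.039 and 0.029 with P1 replicates 3 to 5 alone. Multi-copy and X-linked genes of the germ line and placenta included 5 rises (38.5%) and 1 fall (7.69%) of 13 tested. The shares over all tested genes were 4.70% and 5.44%. Members detected at P6 but not at P1 could enter the test through P6 alone, so the share describes the list and is no test of it. Bex1 was detected only at P6, at least 4.01-fold higher (adjusted p = 2.2e-07), Bex4 rose by 3.42 ± 0.46 (adjusted p = 1.9e-05) and Xlr3b by 2.40 ± 0.34 (adjusted p = 3.8e-05). Dmrtc1c2 went down, from P1 samples between -5.65 and -2.84 to no detected signal at P6, at least 5.98-fold (adjusted p = 0.00013). Among 27 tested ligands and inhibitors of the Wnt, Notch and BMP pathways 2 rose and 1 fell, or 2 and 2 with P1 replicates 3 to 5 alone. This share of 11.1% was again near the 10.1% of all tested genes. Bmp4 rose by 3.34 ± 0.51 (adjusted p = 8.8e-05) and Wnt6 by 0.82 ± 0.19 (adjusted p = 0.0046, and 0.020 with P1 replicates 3 to 5 alone).

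Acute-phase proteins, which liver and other cells secrete in inflammation, were the list with the highest share of falls among those shown. Of 14 tested members 6 fell (42.9%, against 5.44% over all tested genes) and none rose, and the median change was -1.96. With P1 replicates 3 to 5 alone 9 fell, with a median of -2.88. The summed linear level of the list was 7.32 in LOT1, 30.4 to 41.8 in P1 replicates 2 to 5 and 10.8 to 18.4 at P6. The parental samples had 5.43 and 8.82, so the P6 sums lay above those and LOT1. Lcn2, a bright member named here after its value was seen, had means of 3.19 at P1 and 3.18 at P6. Serpina3n, a secreted inhibitor of serine proteases, was at -3.64 in LOT1, at -2.74, -0.96, -0.51 and -1.55 in P1 replicates 2 to 5, and at -8.05, -8.56, -7.69 and -8.42 at P6. It was detected in every P1 sample and in no P6 sample, at least 28.7-fold lower at P6 (adjusted p = 3.9e-08). Serpina3m was at -8.55 in LOT1, -5.99 in replicate 2 and between -2.29 and -1.93 in replicates 3 to 5, and was at least 5.96-fold lower at P6 (adjusted p = 0.00068). Serpina3c, at -7.11 in LOT1, was at least 5.07-fold lower (adjusted p = 7.5e-05). Saa2, an apolipoprotein of acute inflammation, was likewise undetected in LOT1 at -8.54, stood at -2.98, -2.80, -1.72 and -3.07 in P1 replicates 2 to 5 and lay between -9.01 and -8.16 at P6, at least 7.48-fold lower (adjusted p = 0.00048). The groups overlapped only through LOT1. Lrg1, a leucine-rich glycoprotein of serum, fell by 2.26 ± 0.46 (adjusted p = 0.0015), with LOT1 again among the P6 values.

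Saa1, which is highly similar to Saa2, missed the threshold over all samples. It was at -3.33 in LOT1, at 0.31, 1.58, 1.46 and 0.40 in P1 replicates 2 to 5 and at -2.41, -2.73, -1.81 and -1.98 at P6. The difference was -2.32 ± 0.67 (adjusted p = 0.018), and -3.38 (adjusted p = 1.4e-05) with P1 replicates 3 to 5 alone. LOT1 was the P1 sample far from the rest, while replicate 2 lay next to replicate 5. Of 18 tested complement genes 4 fell (22.2%) and 2 rose (11.1%), with a median of -0.42, against 5.44% and 4.70% over all tested genes. C3, the central component of the cascade, was at 1.96, 1.21, 1.81, 2.35 and 1.54 at P1 and at -0.78, -0.28, -0.21 and -0.29 at P6. LOT1 lay within its group here. C3 fell by 2.16 ± 0.32 (adjusted p = 5.2e-05). The proteases C1s1 and C1s2, which start the classical pathway, fell by 1.37 ± 0.21 (adjusted p = 0.00011) and 1.46 ± 0.20 (adjusted p = 3.0e-05). Cfb, the protease of the alternative pathway, spread from -7.54 to -2.20 at P1 and from -3.96 to -3.35 at P6, with a difference of 0.99 ± 0.67 (adjusted p = 0.32) that was -0.56 with P1 replicates 3 to 5 alone.

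Interferon-stimulated genes, whose products restrain viruses, made up another list with more falls than rises. Of 36 tested genes 9 fell (25%, against 5.44% over all tested genes) and 1 rose, and the median change was -0.74. With P1 replicates 3 to 5 alone 10 fell and none rose, while 5 fell after quantile normalization and 4 with the long-mRNA index as a covariate. The promoters of such genes often hold a repeat of GAAA letters. The promoters of 4 genes that fell are shown because this repeat is typical of the list, each from 250 bases before to 50 bases after the start of the gene in RefSeq (build GRCm38.p6), written 5′ to 3′ on the strand of the gene, with each match to GAAA, then 2 bases of any kind, then GAAA, on either strand, in capitals. Ifit1, which binds viral RNA, lies at chr19:34640639-34640938 on the plus strand and Ifit3, its partner, at chr19:34583279-34583578 on the plus strand. Rsad2, the antiviral enzyme viperin, lies at chr12:26456403-26456702 on the minus strand and Oas3, which makes the second messenger oligoadenylate, at chr5:120777610-120777909 on the minus strand.
Ifit1: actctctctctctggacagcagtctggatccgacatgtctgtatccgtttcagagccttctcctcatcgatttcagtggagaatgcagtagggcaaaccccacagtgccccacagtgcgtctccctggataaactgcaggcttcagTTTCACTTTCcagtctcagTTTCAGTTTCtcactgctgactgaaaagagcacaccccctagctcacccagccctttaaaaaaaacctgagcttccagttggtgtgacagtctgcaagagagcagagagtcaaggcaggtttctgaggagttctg
Ifit3: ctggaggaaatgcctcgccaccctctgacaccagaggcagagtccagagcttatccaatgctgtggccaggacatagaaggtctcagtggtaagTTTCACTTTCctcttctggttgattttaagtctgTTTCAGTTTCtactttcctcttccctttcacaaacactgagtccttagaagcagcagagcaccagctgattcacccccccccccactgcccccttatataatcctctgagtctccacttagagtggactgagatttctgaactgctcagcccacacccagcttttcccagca
Rsad2: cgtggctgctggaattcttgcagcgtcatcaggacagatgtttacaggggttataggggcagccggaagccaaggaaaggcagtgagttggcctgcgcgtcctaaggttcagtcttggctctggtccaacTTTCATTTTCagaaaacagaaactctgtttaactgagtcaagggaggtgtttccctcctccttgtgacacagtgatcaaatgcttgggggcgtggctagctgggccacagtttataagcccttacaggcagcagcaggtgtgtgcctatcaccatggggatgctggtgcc
Oas3: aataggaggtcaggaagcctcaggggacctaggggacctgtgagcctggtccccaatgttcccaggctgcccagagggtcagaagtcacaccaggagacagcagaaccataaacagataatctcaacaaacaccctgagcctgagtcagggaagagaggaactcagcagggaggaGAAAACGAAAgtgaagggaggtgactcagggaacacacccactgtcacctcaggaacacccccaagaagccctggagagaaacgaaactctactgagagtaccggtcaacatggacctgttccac

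A promoter was given for 8 of the 9 genes that fell, and 7 of these 8 (87.5%) held the motif. It was found in 12 of 20 (60.0%) of the other tested interferon-stimulated genes with a promoter, and in 1131 of 32851 (3.44%) of all promoters of this length. A match describes the letters of the window, not binding. Ifit3 was at -4.60 in LOT1, at -4.07, -3.55, -2.88 and -3.49 in P1 replicates 2 to 5 and at -6.45, -6.44, -5.90 and -6.06 at P6. It fell by 2.50 ± 0.39 (adjusted p = 0.00010). LOT1 was the lowest P1 sample and still above every P6 sample. Oas3 was at -3.63, -3.19, -2.91, -2.28 and -2.62 at P1 and at -5.88, -6.32, -4.49 and -5.45 at P6, a change of -2.61 ± 0.54 (adjusted p = 0.0018). Ifit1 fell by 2.45 ± 0.58 (adjusted p = 0.0050). Rsad2 was detected in all P1 samples and no P6 sample, at least 3.86-fold lower (adjusted p = 0.00049). The rise, named here after its value was seen, was Oasl1 at 1.03. In the parental cells Ifit3 had a mean of -4.81 and Oas3 of -4.41, between the P1 and P6 means.

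**Figure D4:**
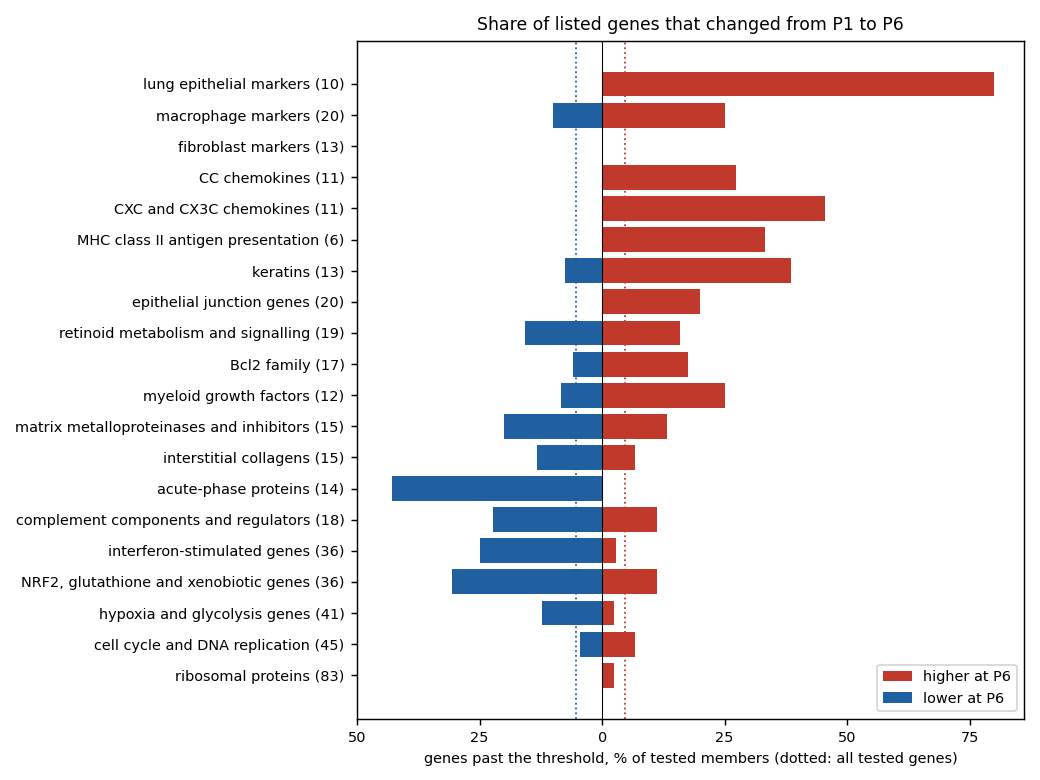
Percent of the tested members of 20 gene lists (y axis, number tested in parentheses) that rose (red, to the right) or fell (blue, to the left) from P1 to P6, with the shares over all tested genes, 4.70% and 5.44%, as dotted lines. Lung epithelial markers have the longest red bar and acute-phase proteins the longest blue bar.

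In the lists for antioxidant defence and sugar use more genes fell than rose, as also held over all tested genes (5.44% against 4.70%). Of 36 tested genes of the NRF2, glutathione and xenobiotic list 11 fell (30.6%) and 4 rose (11.1%), with a median change of -0.54. With P1 replicates 3 to 5 alone 8 fell and 4 rose. With the long-mRNA index 6 fell and 5 rose, so the excess of falls depended on the setting. The rises were the 3 transporters named above and Gpx2, a glutathione peroxidase of epithelia, which rose by 2.62 ± 0.53 (adjusted p = 0.0015) with P1 replicate 2 overlapping the P6 samples. Among 41 tested genes of hypoxia and glycolysis 5 fell (12.2%) and 1 rose (2.44%), and the median was -0.40. With P1 replicates 3 to 5 alone 3 fell and 1 rose. Slc2a3, the glucose transporter GLUT3, was at -1.81 in LOT1, at -0.36, -0.36, -0.67 and -0.27 in P1 replicates 2 to 5 and at -2.87, -3.27, -2.64 and -2.83 at P6. LOT1 was the P1 sample nearest to P6. Slc2a3 fell by 2.21 ± 0.36 (adjusted p = 0.00017), the glycolytic enzymes Eno2 by 1.65 ± 0.33 (adjusted p = 0.0012) and Pfkp by 1.14 ± 0.23 (adjusted p = 0.0012), and Pfkfb4, which sets the level of a glycolysis activator, rose by 1.19 ± 0.18 (adjusted p = 9.0e-05). Eno2 and Pfkp each had an adjusted p of 0.013 with P1 replicates 3 to 5 alone.

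The other large falls were genes of diverse function. Zbtb16, the zinc finger transcription factor PLZF, was at -4.10, -5.90, -2.59, -2.15 and -2.04 at P1 and between -8.43 and -7.66 at P6, at least 10.3-fold lower (adjusted p = 4.0e-06). P1 replicate 2 was the lowest of its group but was detected. Slc6a12, a betaine transporter of kidney cells, was at -3.23 in LOT1, at -3.90, -0.94, -0.23 and -0.05 in P1 replicates 2 to 5 and at -5.73, -5.36, -5.27 and -5.73 at P6. It fell by 3.85 ± 0.55 (adjusted p = 4.2e-05). Sfrp5, a secreted inhibitor of Wnt proteins, was at least 10.2-fold lower at P6 (adjusted p = 1.9e-07), and Cyp11a1, which starts steroid hormone synthesis, at least 6.86-fold (adjusted p = 1.7e-06). Hspb7, a small heat-shock protein of muscle, was at least 4.82-fold lower (adjusted p = 2.2e-05) and Sprr2g, a protein of cornified epithelium, at least 7.94-fold (adjusted p = 9.1e-05). Gdpd2, a phosphodiesterase of glycerophospholipids, was at least 5.07-fold lower (adjusted p = 0.00023) and the lipase family member Lipn at least 4.23-fold (adjusted p = 7.0e-08). All of these 8 genes were detected in every P1 sample, and Slc6a12 was the one still detected at P6.

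Genes that the study followed up at later stages were examined whether or not they passed. The study reported increases of Cd44, Nt5e and Aldh1a1 in P6 cells, and measured Vhl, Hif1a and Hif2a (Epas1) by qPCR in P0 and P6 cells. It drew its signatures from genes that changed between P0 and P6 and went with patient survival. The array differences below start from P1, so they are no test of those results. Nt5e, the ecto-nucleotidase CD73, was at -8.69, -6.87, -6.94, -8.13 and -6.53 at P1 and at -3.40, -3.59, -3.58 and -3.84 at P6, a rise of 3.83 ± 0.38 (adjusted p = 2.4e-07). Ppef1, a protein phosphatase, rose by 2.48 ± 0.40 (adjusted p = 0.00014). Ly6a, the surface antigen Sca-1 of the same list of stem-like markers as Nt5e, fell by 1.70 ± 0.29 (adjusted p = 0.00033). Cd44, the hyaluronan receptor, had a difference of 0.42 ± 0.36 (adjusted p = 0.44) and Aldh1a1, a retinal dehydrogenase, of 0.68 ± 0.92 (adjusted p = 0.64), with P1 samples from -7.66 to -1.69. Postn, the matrix protein periostin, had -1.36 ± 1.09 (adjusted p = 0.40) and the B-cell factor Tnfsf13b 0.56 ± 0.26 (adjusted p = 0.14). The hypoxia regulators Hif1a and Epas1 had -0.49 ± 0.35 (adjusted p = 0.35) and -0.33 ± 0.12 (adjusted p = 0.050). Vhl, the tumour suppressor that marks them for degradation, had -0.17 ± 0.21 (adjusted p = 0.61). Samsn1 was not tested, as too few arrays detected it. The study had listed its T-LM signature on samples of this series, so the genes are no independent set. Of the 20 tested 4 rose (20%, against 4.70% over all tested genes) and none fell, and the median change was 0.69. Against P1 replicates 3 to 5 alone, 5 rose and the median was -0.32. The 4 rises over all samples were Crabp2, the mannosyltransferase Pigz with a rise of 4.11 ± 0.34 (adjusted p = 2.7e-08), the co-chaperone Dnajc12 with 2.33 ± 0.47 (adjusted p = 0.0013) and the kinase Dyrk4, at least 3.93-fold higher (adjusted p = 3.0e-07).

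The passages between P1 and P6 did not form a single path. For 482 of the 595 rises (81.0%) the parental mean was on the P1 side of the midpoint between P1 and P6, and the P2, P3, P4 and P5 means were on the P6 side for 31.1%, 36.1%, 68.2% and 38.0%. B4galnt2 stepped up at each passage, with means of -4.39, -3.89, -2.43 and -2.17 from P2 to P5. Pf4 did not, with means of -4.86, -8.58, 1.18 and -4.90 over the same passages, so that P4 stood above P6 and P3 at the parental level of -8.21. Among the 689 falls the parental mean was on the P1 side in 296 (43.0%) and already on the P6 side in the other 393. The P2 to P5 means were on the P6 side for 55.9%, 75%, 90.1% and 63.9% of the falls. Serpina3n had a parental mean of -6.97 and means of -5.66, -7.36, -7.38 and -6.09 from P2 to P5, all far below its P1 mean of -1.88. Since P1 and P6 are in the midpoint themselves, these shares are a description with no test.

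Slide did not coincide with the groups. All arrays in the fits were read with the same version of the scanner software, and each of 3 slides held a P1 and a P6 sample. With slide as a fixed block in the fit 371 genes rose and 353 fell, and 704 of these were also among the 1284 genes called without the block.

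To ask which changes differed from those of the kidney tumour route, the change from P1 to P6 was compared with that of KPT. This used 1 fit with an interaction term. Cells placed under the kidney capsule and recovered from lung metastases had 1 sample at P1 and were not compared. The fit thus cannot tell which changes are particular to growth in the lung. In 210 of 13165 tested genes (1.60%) the change differed, 149 with the higher change in T-LM and 61 with the lower, and 161 of the 210 were also called in T-LM by itself. The routes moved in opposite directions in 170 of the 210 genes, with T-LM up and KPT down in 123 and T-LM down and KPT up in 47. Of the 595 rises 120 differed between routes in this test and of the 689 falls 41 did. The routes share no P1 or P6 sample.

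Among the members of the lists tested in T-LM the change differed between routes in 4 of 11 CC chemokines, 6 of 11 CXC and CX3C chemokines and 1 of 20 macrophage markers. The 5 largest differences were those of Pf4, Ccl6, Arg1, Clec4n and Ccl9. Pf4 had a mean of -1.43 at KPT P1 and -7.87 at KPT P6, a KPT change of -6.44, so that the routes differed by 10.72 ± 2.14 (adjusted p = 0.0023). Ccl6 differed by 10.20 ± 2.05 (adjusted p = 0.0025), Arg1 by 9.23 ± 1.66 (adjusted p = 0.00070), Clec4n by 9.12 ± 1.78 (adjusted p = 0.0018) and Ccl9 by 9.0 ± 1.80 (adjusted p = 0.0023). With P1 replicates 3 to 5 alone the adjusted p of Pf4, Ccl6 and Ccl9 were 0.014, 0.014 and 0.012. In each of the 5 genes the mean fell in KPT and rose in T-LM, and all 5 were detected in every T-LM P6 sample. The KPT P1 samples differed widely among themselves. Their standard deviation was 1.64 for Pf4, 1.98 for Ccl6, 3.32 for Arg1, 2.12 for Clec4n and 2.11 for Ccl9. Arg1 was detected in 3 of 5 KPT P1 samples and the other four in all 5. The summed macrophage marker level was 5.47 to 10.3 at KPT P1 and 3.95 to 5.39 at KPT P6. The mean log2 level of these markers was -5.79 and -5.90 in KPT P1 replicates 1 and 2 and -4.16, -3.75 and -4.33 in replicates 3 to 5. At KPT P6 it was -6.37 to -5.76. The part of macrophages in these differences was not tested. Pigz differed by 7.48 ± 0.88 (adjusted p = 1.0e-06), with a KPT change of -3.38. Of the lung epithelial genes, Sftpc differed by 6.42 ± 0.85 (adjusted p = 6.6e-06), with KPT means of -8.11 and -8.81, and Sftpd by 3.79 ± 0.62 (adjusted p = 0.00017). Krt7 and Mal2 differed by 4.54 ± 1.02 (adjusted p = 0.0077) and 5.45 ± 0.81 (adjusted p = 4.8e-05).

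On the other side, Dpep1, a dipeptidase of the kidney tubule, had a difference of -4.51 ± 0.45 (adjusted p = 3.3e-08), with a KPT change of 3.16, and its T-LM difference was -1.35 ± 0.37 (adjusted p = 0.014). Serpina3m differed by -4.44 ± 0.98 (adjusted p = 0.0063), the potassium channel subunit Lrrc26 by -4.32 ± 0.59 (adjusted p = 1.2e-05), Gm9112 by -4.23 ± 0.50 (adjusted p = 1.0e-06) and 1700018G05Rik by -3.68 ± 0.53 (adjusted p = 3.2e-05). Lrrc26 lay between -3.96 and -2.41 at T-LM P1 and between -6.80 and -6.22 at T-LM P6, while its KPT mean went from -5.88 to -4.61. Ifit3 differed by -3.10 ± 0.50 (adjusted p = 0.00016), with a KPT change of 0.61. Several of the strongest T-LM changes gave no difference past the threshold. For Serpina3n it was -1.73 ± 0.61 (adjusted p = 0.14) with a KPT change of -4.57 (-2.60 with P1 replicates 3 to 5 alone, adjusted p = 0.0028), for C3 -0.12 ± 0.44 (adjusted p = 0.95) with a KPT change of -2.04, and for Il34 0.69 ± 0.47 (adjusted p = 0.58) with a KPT change of 2.77. B4galnt2 and Cryaa had KPT changes of 4.16 and 3.12, and the T-LM change was larger by 2.93 ± 0.49 (adjusted p = 0.00028) and 3.52 ± 0.65 (adjusted p = 0.00096).

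**Figure D5:**
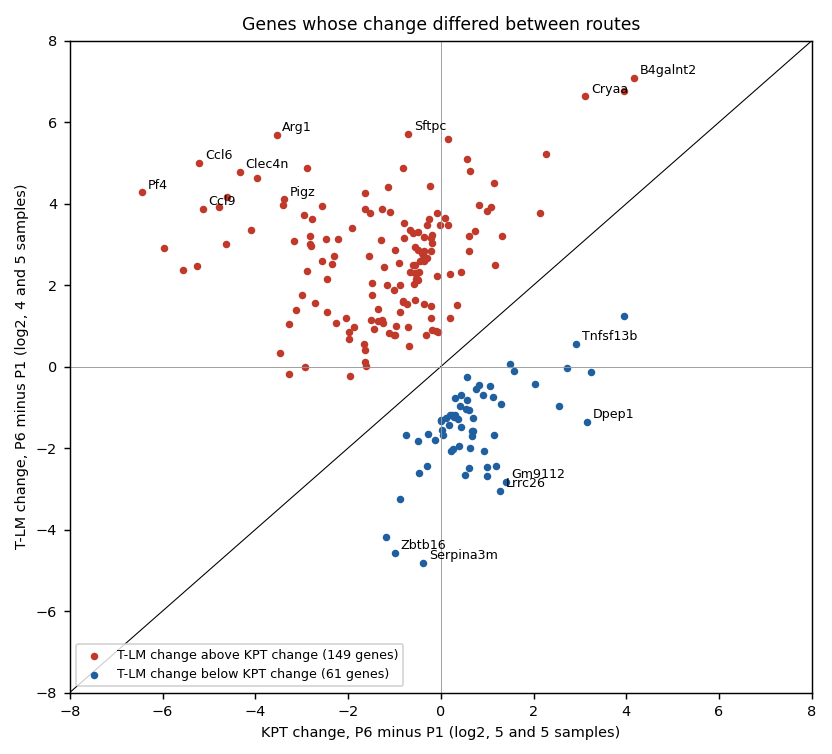
Change from P1 to P6 in KPT (x axis, log2) and in T-LM (y axis, log2) for the 210 genes whose change differed between the routes, each point a gene, with the line of equal changes in black. The 149 genes above the line include Pf4, Ccl6 and Arg1, which were lower at KPT P6 and higher at T-LM P6 than at P1, and the 61 below it include Dpep1 and Serpina3m.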

How the data were processed

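Total RNA from each sample was labelled with Cy5 and hybridised to a 1-colour Agilent SurePrint G3 mouse array. The deposited intensity values are the scanner software's background-subtracted and detrended signals of 62976 spots, and the authors also deposited a log2 table that matched quantile-normalized raw median signals to within 0.107, used here as an alternative. No further upstream step is given in the sources used here. Of the spots, 3671 controls and 15176 outlier flags over 70 arrays were left out, and the 75th percentile was taken over the 11289 probes detected on all arrays. RefSeq GRCm38.p6 gave symbols to 28020 of 55681 probes. Scanner files held no mean signal, so the background-correction alternative (normexp, offset 50) used the median signal.

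Probes detected on at least 2 arrays were fitted with limma 3.58.1 in R 4.3.3 on all T-LM passages and P0, with a coefficient per passage, and the KPT samples were added for the test between routes. The fit was tested on simulated data. Benjamini-Hochberg adjusted p of at most 0.01 counted as called, and with so few arrays per group the precision is limited. Genes are named if they were the 12 largest non-overlapping changes in each direction, the 4 largest called changes of a gene list, genes the study followed up, or the 5 largest differences between routes in each direction. The members and lists were chosen with earlier results of these data known. One called gene that this rule selects is not reported here.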

Additional observations from a re-analysis of the deposited data

Results flagged for a closer look

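Among the named genes and the array measures, 40 values lay far from the rest of their group by Dixon's test, out of 226 groups of 4 or 5 samples, of which chance gives about 1 in 20. LOT1 accounted for 20 of them. It was the low sample of P1 for Sfrp5 at -5.23, Marco at -7.77, Saa2 at -8.54, Lrg1 at -4.13, Mmp19 at -8.24, Krt17 at -2.24, Slc2a3 at -1.81, Abcb1b at -8.53, Abcb4 at -7.75, Abcb1a at -6.39, Dhrs3 at -3.26, Rarres1 at -8.56, Bcl2l15 at -7.75, Ly6a at 0.95, Cdkn1a at -1.19, Saa1 at -3.33, Cd44 at -3.24 and Clec4n at -8.18. It was the high one for Il6ra at 2.21 and E2f2 at 0.32. P1 replicate 2 was high for Ctag2l2 at -7.20, Cryaa at -4.19, Ctag2l1 at -6.17, Sftpc at -6.35, Mal2 at -6.51, Adgrf5 at -6.43, Sftpd at -5.11, Sftpb at -6.31, Cdh1 at -5.49 and Bex4 at -6.10, and 55.12% of its probes were detected. P1 replicate 5 was low for Ppbp at -9.03. Within P6, replicate 1 was low for C3 at -0.78 and Rsad2 at -7.62. P6 replicate 2 was high for Dnajc12 at -4.10 and Hif1a at 0.35 and low for Eno2 at -1.97 and Crabp2 at 0.27, and replicate 3 was high for Marco at -7.26 and Ccl17 at -4.20. With P1 replicates 3 to 5 alone 13 of the 101 named genes that rose or fell lost their call, and their values are given beside them above.

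For 49 named genes the change from P1 to P6 differed between T-LM and KPT by the interaction test (limma adjusted p of at most 0.01). The log2 change was higher in T-LM for 38 genes. Differences of 7 or more were found for Pf4 10.72, Ccl6 10.20, Arg1 9.23, Clec4n 9.12, Ccl9 9.0, Mmp12 8.75, Il1b 8.71, Bcl2a1d 8.60, Cxcl14 7.77, Pigz 7.48 and Ctss 7.36. Differences between 4 and 7 were found for Sftpc 6.42, Bcl2l15 5.68, H2-Eb1 5.55, Mal2 5.45, Mmp9 5.31, Ppbp 4.89, Krt7 4.54 and Cxcl3 4.53. Smaller positive differences were found for Cdh1 3.87, Ccl17 3.86, Sftpd 3.79, Cryaa 3.52, Bmf 3.49, Krt19 3.49, Sftpb 3.36, Cyp26a1 3.35, Ager 3.20, Gpx2 2.98, Pramel13 2.95, B4galnt2 2.93, H2-DMb1 2.84, Nt5e 2.84, Crabp2 2.83, Ctag2l2 2.82, St14 2.26, Pfkfb4 1.41 and Msln 1.31. The change was lower in T-LM for 11 genes, namely Lipn -2.36, Tnfsf13b -2.37, Ly6a -2.38, Hspb7 -3.00, Ifit3 -3.10, Zbtb16 -3.57, 1700018G05Rik -3.68, Gm9112 -4.23, Lrrc26 -4.32, Serpina3m -4.44 and Dpep1 -4.51.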

How the results depend on the processing

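Of 101 named genes that rose or fell, all kept their direction under each of the 24 alternatives they could be tested in, and 41 also kept their call in every one. The 2176 called probes became 934 with a filter on all arrays (fewer probes tested), 1140 with the P1 and P6 arrays only (fewer samples), 1360 with slide as a fixed block, 1447 with the index of long over ribosomal mRNAs as a covariate and 5298 with array weights. Leaving out 1 sample gave 1296 to 2242 called probes, with 1382, 1317 and 1296 without P6 replicates 1, 2 and 4. For the difference between routes, 294 called probes became 53 with a filter on all arrays, 131 with slide as a fixed block and 1193 with array weights, and 163 to 376 when 1 sample was left out, the lowest being 163 without T-LM P6 replicate 3, 170 without T-LM P6 replicate 2 and 180 without KPT P1 replicate 4. The share of probes higher in T-LM was 66.7%, and 81.4% with the percentile over all probes. The count from P1 to P6 stayed within 1.5 times under the other scalings, no filter (1492), a floor on dim probes (1469), slide as a random block, trend and robust variance, and P1 replicates 3 to 5 alone (1587, chosen after seeing the data). The causes were not tested where none is given.

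P1 and P6 samples with the same replicate number did not deviate together (correlations 0.137, -0.171 and -0.243), so the numbers were not taken as pairs, and a replicate block gave 1405 called probes, and 212 between routes.

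Values that were not called also turned sign. Cfb was -0.38 with array weights and -0.56 with P1 replicates 3 to 5. Aldh1a1 was -0.62 with the replicate block, -0.34 with the index, -0.88 with array weights, -1.06 with P1 replicates 3 to 5 and -0.24 without LOT1, against 1.25 without P1 replicate 4. Cd44 was -0.041 without LOT1, against 0.62 without P1 replicate 2, the highest with 1 sample left out, and Vhl was 0.028 with the percentile over all probes. For dim genes the signal over background limits the fold to a bound.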
